A study of Mus musculus with 2 samples.

Results

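In 2 libraries sorted for CD45, the surface marker of blood cells, 62 barcodes of 7734 passing quality filters met a keratin-based rule. They are called MOC2 carcinoma cells here, and whether each came from the MOC2 line rather than the host mouse was not tested. The Momordicine-I library held 48 of these cells among 4370 filtered barcodes and the vehicle library held 14 among 3364. A barcode was counted as a carcinoma cell when it had at least 200 detected genes, at most 10% mitochondrial UMIs (unique molecular identifiers, the unit of counting), at least 10000 UMIs in all, and at least 20 UMIs summed over Krt8, Krt18 and Krt7. It also had at most 1 UMI of Ptprc, the gene for CD45, and none of Cd79a or Cd3e, components of the B cell and T cell antigen receptors. The values of these 6 genes, and the gene and UMI totals, are thus what the cells were chosen by, and are given below as a description.

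MOC2 is a mouse oral carcinoma line of the C57BL/6 strain. It was grown under the skin in 40% Matrigel in female C57BL/6 mice aged 6 to 7 weeks, and the tumour-bearing mice were randomised, 10 to a group. Daily intraperitoneal Momordicine-I, a bitter melon triterpenoid, was given to one group at 30 mg/kg in DMSO and Captisol, and the other received this vehicle alone. For each group the tumours of 3 mice were combined and sorted on CD45 and propidium iodide into 1 library. There is therefore no replicate, every comparison below is between these libraries, and intervals cover counting error only.

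Keratins 8, 18 and 7 form the intermediate filaments of simple, glandular-type epithelia. Carcinoma cells can lose junction proteins such as E-cadherin and take on genes of connective-tissue cells, a shift known as epithelial-mesenchymal transition, and many tumours hold cells at different points along it. The transcription factors of the Zeb and Snail families, which bind the DNA motif CAGGTG, are known to repress E-cadherin during that shift.

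The 250 bases before the RefSeq start of Epcam, an epithelial surface protein whose level divided the carcinoma cells, and of Vim, which encodes the mesenchymal filament vimentin, are shown with CAGGTG, or its reverse complement CACCTG, in capitals (RefSeq, GRCm38.p6, plus strand). The Epcam window is at chr17:87635729-87635978 and the Vim window at chr2:13574061-13574310. GENCODE starts Vim before RefSeq does, so the Vim window lies inside the GENCODE span of the gene given below. The Epcam window held 2 copies of the motif and the Vim window 0. Of 32851 promoter windows of the same length, 17.2% held 1 or more copies on either strand.
Epcam: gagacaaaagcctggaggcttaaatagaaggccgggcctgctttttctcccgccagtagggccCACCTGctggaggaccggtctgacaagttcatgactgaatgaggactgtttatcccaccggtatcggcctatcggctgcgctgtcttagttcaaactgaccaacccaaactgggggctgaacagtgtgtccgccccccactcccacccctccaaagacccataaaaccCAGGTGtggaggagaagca
Vim: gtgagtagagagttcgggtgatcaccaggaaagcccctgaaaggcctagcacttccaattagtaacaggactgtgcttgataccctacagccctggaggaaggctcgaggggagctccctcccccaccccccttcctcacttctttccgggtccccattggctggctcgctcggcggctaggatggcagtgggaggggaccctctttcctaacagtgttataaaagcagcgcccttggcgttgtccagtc

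The carcinoma cells were few but large. They made up 1.10% of filtered barcodes in the Momordicine-I library (exact Clopper-Pearson 95% interval 0.811 to 1.45%) and 0.416% in the vehicle library (0.228 to 0.697%), a ratio of 2.64 (1.43 to 5.18), a number that the CD45 sort can set. At a mitochondrial limit of 5% the ratio was 4.36. They held 9.61% of the filtered UMIs in the Momordicine-I library and 4.70% in the vehicle library. Total UMIs per carcinoma cell ran over 10944, 68394.5 and 342742 (lowest, median, highest) in the Momordicine-I library and 21651, 112688 and 245385 in the vehicle library. The medians of all other filtered barcodes were 4955.5 and 5743 UMIs.

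The keratin limit fell in a wide gap. The lowest summed keratin counts among the cells were 21, 42 and 52 UMIs in the Momordicine-I library and 38, 77 and 82 in the vehicle library. The barcodes that failed that condition alone had at most 1 keratin UMI in the Momordicine-I library (13 barcodes) and at most 10 in the vehicle library (3 barcodes). The UMI minimum also fell in a gap, with 10944 and 21651 as the lowest totals inside and 7044 and 8482 as the highest outside.

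The Ptprc limit, a fixed number of UMIs, kept out large barcodes. It alone kept out 10 barcodes of the Momordicine-I library and 9 of the vehicle library, with median totals of 113991 and 154598 UMIs. Their Ptprc levels were 28.1 and 36.9 CPM (counts per 1000000 UMIs). Neutrophil markers made up 0.0595% of the UMIs of the keratin-bearing barcodes with more than 1 Ptprc UMI in the Momordicine-I library, and up to 1.44% in 1 barcode. In the vehicle library the share was 0.297%, and up to 8.54%, beside 0.0180% and 0.0205% in the carcinoma cells of the Momordicine-I and vehicle libraries. What these barcodes hold was not tested. The Cd3e condition alone kept out 4 Momordicine-I barcodes of 67474 to 197214 UMIs and 0 vehicle barcodes. The mitochondrial limit alone kept out 6 and 1. With limits of 100 CPM for Ptprc, Cd79a and Cd3e, chosen after these values were seen, 61 barcodes of the Momordicine-I library and 23 of the vehicle library met the rule, and the ratio of shares was 2.04. Of 10 barcode sequences that occurred in both libraries, 0 belonged to a carcinoma cell.

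**Figure D1:**
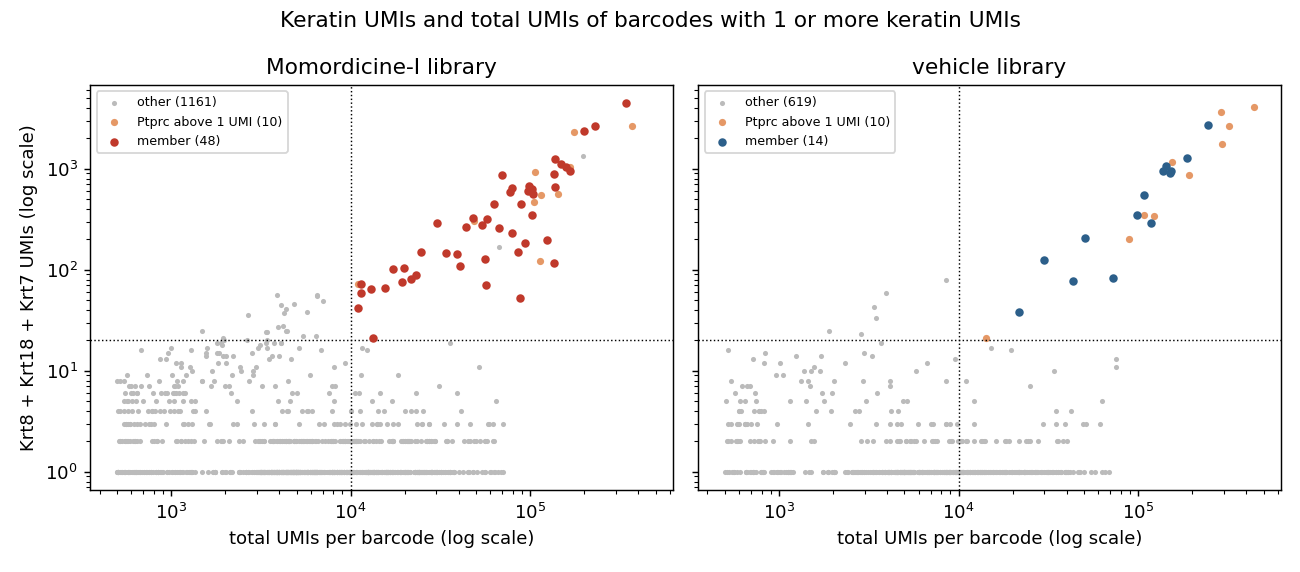
Summed Krt8, Krt18 and Krt7 UMIs (log scale) against total UMIs (log scale) for filtered barcodes with 1 or more keratin UMIs, in the Momordicine-I library (left) and the vehicle library (right). Dotted lines mark 20 keratin UMIs and 10000 total UMIs, coloured points are the 48 and 14 carcinoma cells, and orange points are barcodes past both limits with more than 1 Ptprc UMI, 10 in each library.

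The genes of the other cell types in the tumour were close to absent from these cells. Krt8 and Krt18 had UMIs in all 62 cells and Krt7 in 44 of 48 Momordicine-I and 12 of 14 vehicle cells. Wfdc2, a secreted whey acidic protein-domain inhibitor that the rule did not use, was found in all 62 cells as well, at 2388 CPM in Momordicine-I and 2444 CPM in vehicle carcinoma cells. In neutrophils (median totals of 4628 and 5291 UMIs), which should lack it, Wfdc2 was at 11.9 and 6.00 CPM, with a UMI in 6.94% and 4.08% of barcodes. Tm4sf1, a membrane protein of the tetraspanin-like L6 family, had UMIs in 46 of 48 and 13 of 14 carcinoma cells.

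The 10 neutrophil markers summed to 0.0180% of the carcinoma cells' UMIs in the Momordicine-I library and 0.0205% in the vehicle library, and each of the 10 had a UMI. Per cell this share ran over 0.00332, 0.0181 and 0.314% in the Momordicine-I library and 0.00333, 0.0193 and 0.0324% in the vehicle library. S100a8, a subunit of calprotectin, was at 44.7 and 53.8 CPM in carcinoma cells, against 27656 and 32904 CPM in neutrophils. The 9 macrophage markers summed to 0.00178% and 0.00218%, and the B cell markers to 2 and 0 UMIs. Fibroblast markers summed to 0.00442% and 0.00276%. Of the type I collagen gene Col1a1, 84 UMIs were counted in the Momordicine-I cells, 94.0% of them in 1 cell, and 0 in the vehicle cells.

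Besides the simple-epithelial keratins, some keratins of stratified epithelia were present. Krt5, the basal-layer partner of keratin 14, had 0 UMIs in both libraries' carcinoma cells, and Trp63, the regulator of squamous basal cells, had 4 and 1 UMIs. Krt14 was at 692 CPM in Momordicine-I and 949 CPM in vehicle carcinoma cells and had UMIs in 39 of 48 and 11 of 14 cells. Krt17 was at 263 and 217 CPM, in 26 of 48 and 8 of 14 cells, and Krt6a at 61.0 and 94.9 CPM, in 17 and 3 cells, with 96.6% of the vehicle UMIs in 1 cell. Xist, the RNA of X inactivation, was at 584 and 690 CPM and occurred in 33 of 48 and 13 of 14 cells, while the Y-linked genes had 0 UMIs, and the host mice were female as well.

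Among genes at 100 CPM or more, those that stood highest over all other filtered barcodes in both libraries were led by Ccn1, a matrix-associated growth regulator, at 187 CPM in Momordicine-I and 241 CPM in vehicle carcinoma cells. The other barcodes include the keratin-bearing barcodes that the rule left out. Those with more than 1 Ptprc UMI held 16832 of the 27863 UMIs of Krt8, Krt18, Krt7, Wfdc2 and Tm4sf1 in other Momordicine-I barcodes. In other vehicle barcodes they held 24810 of 27327, so the ranking is not against immune cells alone. Msln, which encodes the surface protein mesothelin, was at 466 and 569 CPM, with UMIs in 46 of 48 and 14 of 14 cells. The transcription factor gene Sox9 was at 162 and 194 CPM, and Wwtr1, which encodes the coactivator TAZ, at 137 and 139 CPM. Itgb4, the integrin subunit of hemidesmosomes, was at 157 CPM and 249 CPM, and Cx3cl1, a membrane-bound chemokine, at 230 and 346 CPM. Cdkn2a, the locus of the cell-cycle inhibitors p16 and p19, was at 445 and 426 CPM and present in 46 of 48 and 14 of 14 cells, the Momordicine-I to vehicle ratio being 1.05 (0.956 to 1.15). Prl2c2 and Prl2c3, prolactin-family genes, were also among the 20 leading genes, but they are close relatives between which reads may be split.

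In both libraries the carcinoma cells differed in epithelial and mesenchymal genes, and Epcam divided them into a high and a low set. Epcam (chromosome 17, 87635979 to 87651129) was at 0, 287 and 4488 CPM (lowest, median, highest) across Momordicine-I cells and at 0, 27.9 and 1976 CPM across vehicle cells. A level of 50 CPM, set after the values were seen, lay in a gap: the nearest cells were at 12.6 and 87.1 CPM in the Momordicine-I library and at 0 and 55.8 CPM in the vehicle library. In cells under 20000 UMIs, 1 UMI lies above 50 CPM, so their depth alone keeps them out of the gap. The cell at 87.1 CPM had 11482 UMIs, and 2 of the 13 Momordicine-I cells without Epcam were under 20000. On this split 30 of 48 Momordicine-I cells (62.5%, 47.4 to 76.0%) and 7 of 14 vehicle cells (50%, 23 to 77%) were Epcam-high, intervals that overlap.

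Cdh1, which encodes E-cadherin, followed the split without exception among Epcam-low cells: 0 UMIs were counted in the 18 Momordicine-I and 7 vehicle Epcam-low cells, although their median totals were 73196.5 and 98145 UMIs. In Epcam-high cells Cdh1 was at 115 CPM in the Momordicine-I library, with UMIs in 25 of 30 cells, and at 126 CPM in the vehicle library, in 6 of 7 cells. Against a floor of 3 counts per library, Cdh1 was at least 49.6-fold higher in Epcam-high than in Epcam-low cells in the Momordicine-I library and at least 25.1-fold higher in the vehicle library. In the vehicle library 1 cell held 75.2% of the Epcam-high Cdh1 UMIs. Across the 62 cells, Spearman's rho between Epcam and Cdh1 was 0.84, and 0.87 over the 53 cells with 20000 UMIs or more, while rho between Epcam and total UMIs was 0.18. These values describe cells that share 2 libraries.

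Other epithelial genes went the same way. Of 20 measured genes of the epithelial junction list, 16 were higher in Epcam-high cells by at least 1.5-fold in both libraries and 0 were lower. Of all 8094 measured genes, 4.56% were higher and 9.14% lower by this rule. Epcam is itself in the list and chose the cells, so these counts are descriptive. Cldn7, a claudin of epithelial tight junctions, was at 493 against 8.53 CPM (Epcam-high, Epcam-low) in the Momordicine-I library and at 377 against 1.67 CPM in the vehicle library. Rab25, an epithelial regulator of membrane recycling, was at 217 against 2.33 CPM and 71.8 against 0 CPM. In the vehicle library 1 cell held 56.4% of the Epcam-high UMIs of Cldn7, and 1 cell held 65.2% of those of Rab25. Of 9 measured keratins 7 were higher in both libraries, among them Krt17, at 391 against 5.43 CPM and 351 against 1.67 CPM, and Krt14, at 1000.2 against 76.0 CPM and 1530.4 against 16.7 CPM. Of the vehicle Epcam-high UMIs, 1 cell held 51.3% for Krt17 and 1 cell held 63.5% for Krt14. Krt7, Krt8 and Krt18, which also chose the cells, are among the 9, and Krt7 and Krt8 among the 7. Krt8 differed less, at 2365 against 1548 CPM and 2924 against 1546 CPM.

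Epcam-low cells carried genes of connective-tissue programmes. Of 18 measured mesenchymal and EMT genes, 8 were lower in Epcam-high cells by at least 1.5-fold in both libraries and 0 were higher. Prrx1, a mesenchymal transcription factor, had 1 and 0 UMIs in Epcam-high cells, and was at 144 CPM in the Momordicine-I and 48.4 CPM in the vehicle Epcam-low cells. Il33, an alarmin cytokine, showed the same pattern, at 0.388 CPM in Epcam-high against 254 CPM in Epcam-low Momordicine-I cells and at 0 against 144 CPM in vehicle cells. Of the vehicle Epcam-low UMIs of Il33, 60.5% were in 1 cell. Zeb1, a repressor of epithelial genes, was at 7.36 against 40.3 CPM in the Momordicine-I library and 20.8 against 88.5 CPM in the vehicle library. Cdh2, which encodes N-cadherin, was at 0.775 against 40.3 CPM and at 5.20 against 61.8 CPM. Sparc, a collagen-binding matrix protein, was at 289 against 2088 CPM and at 271 against 1236 CPM.

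The summed level of Vim (chromosome 2, 13573927 to 13582826) did not follow this order in both libraries, while its median per cell did. Summed over cells it was at 1389 CPM in Epcam-high against 6141 CPM in Epcam-low cells of the Momordicine-I library, but at 4401 against 2505 CPM in the vehicle library. The medians of Vim per cell were 119 against 4728 CPM in the Momordicine-I library and 1492 against 3095 CPM in the vehicle library, and Spearman's rho between Epcam and Vim over the 62 cells was -0.55. The highest Vim level among Epcam-high cells was 11444 CPM in the Momordicine-I library and 10663 CPM in the vehicle library, so cells with both Epcam and abundant Vim occurred in each. Epcam-low cells with little Vim occurred in each as well. The lowest were at 48.9 CPM in the Momordicine-I and 36.4 CPM in the vehicle library, with Krt7 at 1204 and 1878 CPM in these cells. Some fibroblast markers also differed along the split, in few UMIs that were unevenly spread over the cells. The 7 markers had UMIs in 16 of 48 Momordicine-I and 7 of 14 vehicle cells. Their share of UMIs was 0.0910% in the highest Momordicine-I cell and 0.0290% in the highest vehicle cell. Over all cells of each library it was 0.00442% and 0.00276%. In the Momordicine-I library, Epcam-high and Epcam-low cells held 3 and 81 UMIs of Col1a1, 0 and 35 of Col3a1, 0 and 34 of the proteoglycan gene Dcn, 0 and 6 of Pdgfrb, 5 and 6 of Pdgfra, and 1 and 0 of Col1a2, while Lum was at 0 in both. In the vehicle library, Dcn had 0 and 34 UMIs and Pdgfra 5 and 4, and the other 5 of the 7 markers were at 0. The part of these markers in the split was not tested.

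**Figure D2:**
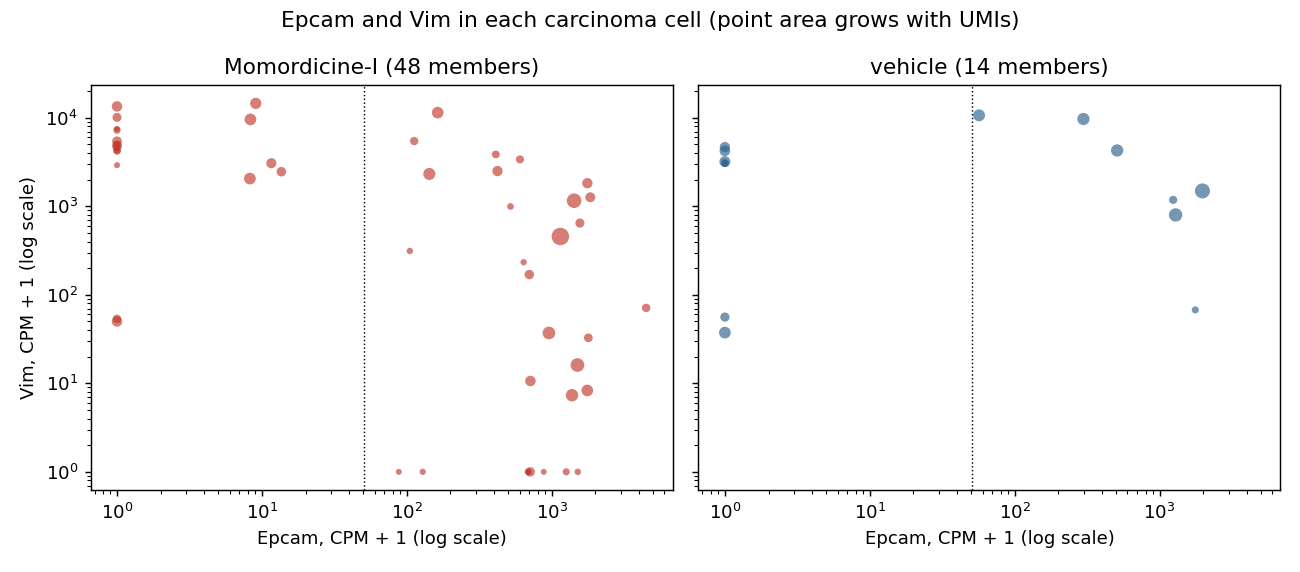
Vim against Epcam (CPM + 1, log scales) in each of the 48 Momordicine-I (left) and 14 vehicle (right) carcinoma cells. The dotted line marks the Epcam split at 50 CPM, and cells right of the line cover Vim levels up to 11444 and 10663 CPM.

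Clustering of the 62 cells alone gave 3 groups. Cluster 1 was led by Sfn, S100a14, Cldn4 and Rab25 and held 25 Momordicine-I and 3 vehicle cells, 27 of these 28 being Epcam-high. Cluster 2 was led by Grem1, Stmn2, Ank and Gas1 and held 17 and 10 cells, with 5 of the 27 Epcam-high. Cluster 3 was led by Lars2, Pabpc4 and Fabp5 and held 6 and 1 cells, with a median of 1888 detected genes at 21600 UMIs and Malat1 at 88.4 CPM. Since the clusters were drawn from these same genes, no test was applied.

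Some Momordicine-I carcinoma cells had hardly any mitochondrial RNA. The mitochondrial share per cell ran over 0.00808, 3.82 and 9.36% (lowest, median, highest) in the Momordicine-I library and 2.11, 5.12 and 9.38% in the vehicle library. It was under 1% in 8 of 48 Momordicine-I cells (16.7%, 7.48 to 30.2%), 7 of them under 0.1%, and in 0 of 14 vehicle cells, a count that allows up to 23.2%. The next Momordicine-I cell was at 1.21%. These 8 cells had 11358 to 24752 UMIs. They kept Wfdc2 at 2554 CPM, while Xist was found in 1 of them.

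Nuclear RNA was low in most of the same cells and in some others. Malat1, a long noncoding RNA retained in the nucleus, was at 0, 125 and 1393 CPM (lowest, median, highest) in the 8 cells and summed to 222 CPM, against 6806 CPM in the other 40 Momordicine-I cells and 11442 CPM in the vehicle cells. In all, 14 of 48 Momordicine-I and 1 of 14 vehicle carcinoma cells had Malat1 under 300 CPM. Among neutrophils of 10000 UMIs or more, 0 of 240 Momordicine-I and 0 of 221 vehicle barcodes were under that level, while 148 and 160 were under 1% mitochondrial UMIs. The keratin-bearing barcodes under the UMI minimum, 118 in the Momordicine-I and 43 in the vehicle library, had median mitochondrial shares of 0.140 and 0.174%, and 44.9% and 41.9% of them had Malat1 under 300 CPM. Whether these barcodes hold whole cells was not tested.

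**Figure D3:**
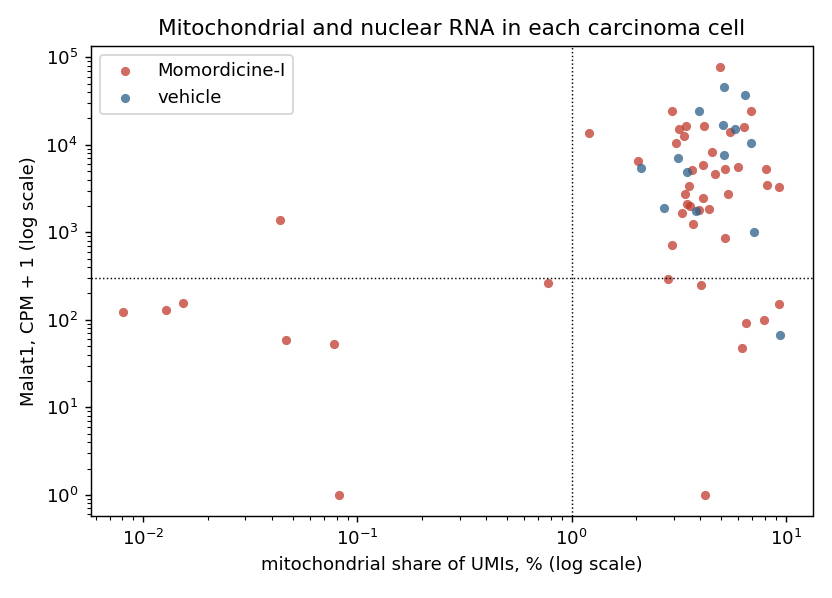
Malat1 (CPM + 1, log scale) against the mitochondrial share of UMIs (%, log scale) in each carcinoma cell, Momordicine-I in red and vehicle in blue. Dotted lines mark 1% and 300 CPM, and the 8 points left of the vertical line are Momordicine-I cells.

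For the comparison of treatments, the UMIs of each library's carcinoma cells were summed, 3869991 from 48 Momordicine-I cells and 1560007 from 14 vehicle cells. Of 8094 genes with 50 UMIs or more, 535 (6.61%) were at least 1.5-fold higher and 1125 (13.9%) at least 1.5-fold lower in the Momordicine-I cells, and the median log2 ratio was -0.12. When the libraries were scaled without mitochondrial, ribosomal and the most abundant genes the split was 748 higher and 863 lower. Single cells weighed heavily: in 145 of the 535 and 375 of the 1125 genes, 1 cell held over 25% of the UMIs of the higher library. Among integrin and adhesion genes and targets of TGF-beta and YAP, more passed 1.5-fold on the lower than on the higher side in the Momordicine-I cells. Among genes of mitosis and of the stress response of the endoplasmic reticulum, more passed it on the higher side. The shares of Epcam-low cells and of cells low in nuclear RNA differed between the libraries as given above, and their part in these differences was not tested beyond the values within each set given here.

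**Figure D4:**
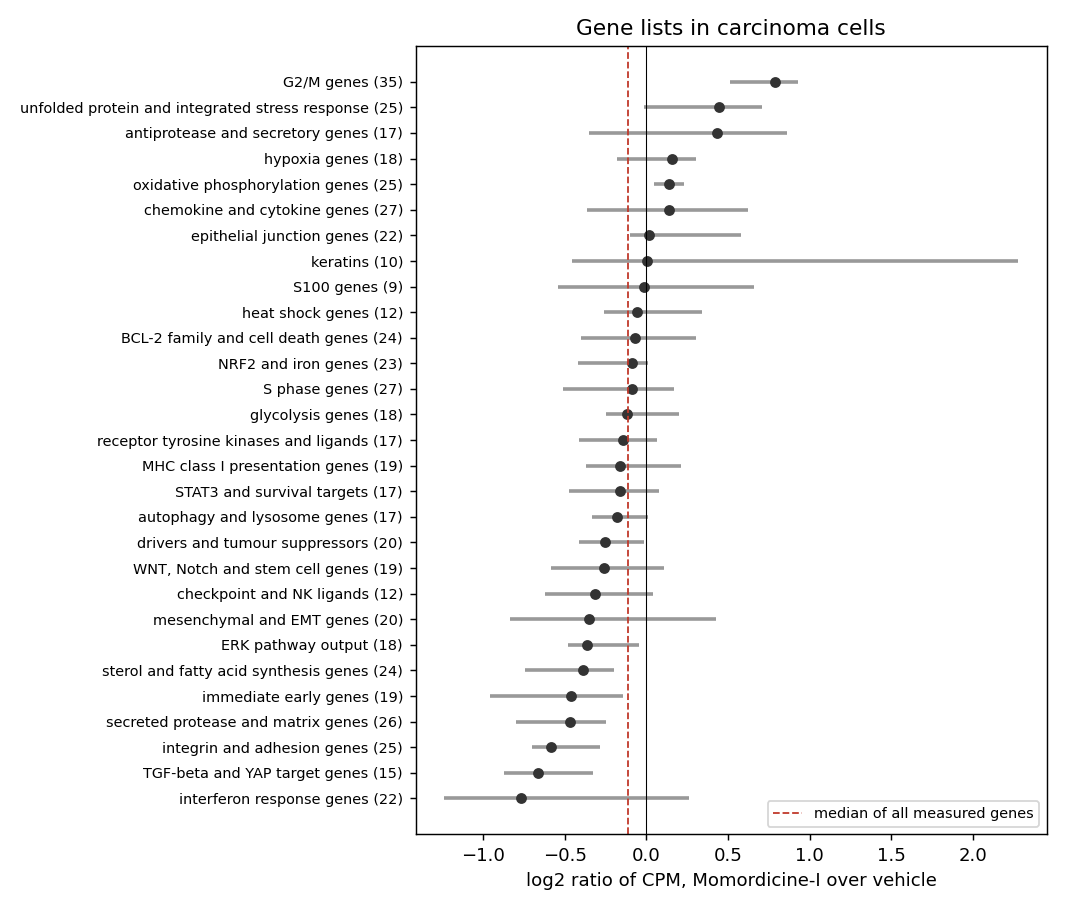
Median log2 ratio of CPM, Momordicine-I over vehicle, of the genes in each list (points, number of measured genes in brackets), with a line over the middle members of each list (order statistics on either side of the median). The dashed line is the median of all measured genes, with G2/M genes at the top and interferon response genes at the bottom.

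Of 25 integrin and adhesion genes, 11 were lower and 1 higher by at least 1.5-fold in the Momordicine-I cells, with a median log2 ratio of -0.58. Over all 10092 genes that met the lists' minimum of 20 UMIs, 16.1% were lower and 9.55% higher, with a median of -0.11. These shares are the background for every list compared between the treatments below. The list median lay between -0.73 and -0.31 over the alternatives, with -0.73 among Epcam-high and -0.36 among Epcam-low cells. Itgb1, the integrin beta subunit shared by most matrix receptors, was at 0, 755 and 1965 CPM (lowest, median, highest) across Momordicine-I cells and 564, 1205 and 1685 CPM across vehicle cells. The ranges overlapped, and the summed level was 757 against 1308 CPM (ratio 0.578, 0.547 to 0.612).

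Msn, which encodes moesin, the linker of membrane to actin, was at 0, 255 and 728 CPM across Momordicine-I cells and 177, 530 and 1109 CPM across vehicle cells, with a summed ratio of 0.453 (0.413 to 0.496). Its log2 ratio of -1.14 lay between -1.48 and -0.83 over the alternatives. Itga6, the alpha partner of Itgb4 in hemidesmosomes, was at 411 and 636 CPM (ratio 0.647), Itga2, a collagen receptor subunit, at 44.2 and 98.1 CPM (0.451), and Vcl, which encodes vinculin of focal adhesions, at 73.9 and 137 CPM (0.541). With thinned cells the log2 ratio of Itga2 was -0.56, against -1.15. The tetraspanin genes Cd9 and Cd63 were level, at ratios of 0.999 (0.945 to 1.06) and 1.02 (0.971 to 1.07).

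Of 15 TGF-beta and YAP target genes, 8 were lower and 0 higher, with a median log2 ratio of -0.66, between -1.04 and -0.18 over the alternatives. Thbs1, a matrix glycoprotein that activates TGF-beta, was at 0, 63.5 and 2770 CPM across Momordicine-I cells and 0, 173 and 1528 CPM across vehicle cells, with overlapping ranges and a summed ratio of 0.546 (0.491 to 0.609). With thinned cells its log2 ratio was -0.100, against -0.87. Inhba, which encodes the activin A subunit, was at 248 and 415 CPM (ratio 0.599), and its log2 ratio of -0.74 was 0.072 with the limits of 100 CPM. Pmepa1, a feedback inhibitor of TGF-beta signalling, was at 0, 163 and 780 CPM across Momordicine-I cells and 0, 420 and 1114 CPM across vehicle cells, a summed ratio of 0.497 (0.450 to 0.550). Ccn2, the connective tissue growth factor gene, was at 115 and 371 CPM, with 77.2% of the vehicle UMIs in 1 cell. Its log2 ratio was 0.0034 without each library's highest cell, against -1.69 over all cells.

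Secreted protease and matrix genes were at a median log2 ratio of -0.47, with 10 of 26 lower and 3 higher. The median was -0.85 among Epcam-high and 0.065 among Epcam-low cells. Plaur, the urokinase receptor, was at 168 and 309 CPM (ratio 0.544, 0.482 to 0.613). Of 19 immediate early genes, 8 were lower and 1 higher, with a median of -0.46. Fos, an AP-1 subunit, was at 0, 238 and 2841 CPM across Momordicine-I cells and 0, 545 and 5081 CPM across vehicle cells (summed ratio 0.503, 0.474 to 0.533), and Fosb was at 141 and 395 CPM (0.357). The log2 ratio of Fosb was -0.56 with the limits of 100 CPM, against -1.49. Junb, another AP-1 subunit, was at 656 and 621 CPM (1.06, 0.981 to 1.14).

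Of 24 sterol and fatty acid synthesis genes, 9 were lower and 0 higher, with a median of -0.39, between -0.73 and -0.08 over the alternatives. Scd2, a fatty acid desaturase, was at 161 and 327 CPM (ratio 0.494, 0.439 to 0.556), Fasn, the fatty acid synthase, at 55.0 and 99.4 CPM (0.554), and Hmgcs1, which acts early in cholesterol synthesis, at 72.1 and 117 CPM (0.618). The log2 ratio of Scd2 was -0.42 among Epcam-low cells, against -1.02.

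Lists with more members on the higher side included genes of mitosis, of stress of the endoplasmic reticulum and of secretion. Of 35 G2/M genes, 19 were higher and 0 lower by at least 1.5-fold, with a median log2 ratio of 0.78, which was 0.05 at a mitochondrial limit of 5%, 0.28 among Epcam-high and 2.65 among Epcam-low cells. Ube2c, a ubiquitin-conjugating enzyme of mitotic exit, was at 361 and 171 CPM (ratio 2.12, 1.86 to 2.42), with UMIs in 25 of 48 and 5 of 14 cells, and 86.5% of the vehicle UMIs in 1 cell. Its log2 ratio was 0.16 at a mitochondrial limit of 5%, against 1.08. Cdk1, the kinase of mitotic entry, was at 0, 18.9 and 667 CPM across Momordicine-I cells and 0, 10.2 and 380 CPM across vehicle cells. Mki67, the Ki-67 gene, was at 76.7 and 78.2 CPM (0.981, 0.792 to 1.22).

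When each cell was thinned to 10000 UMIs, 20 or more G2/M UMIs remained in 19 of 48 Momordicine-I cells (39.6%, 25.8 to 54.7%) and 4 of 14 vehicle cells (28.6%, 8.39 to 58.1%), intervals that overlap. Without thinning, 72.9% and 64.3% of cells passed that level. Of the gated neutrophils with 10000 UMIs or more, 240 in the Momordicine-I and 221 in the vehicle library, 8.75% and 5.88% passed it after thinning. Mature neutrophils no longer divide, but whether this set holds other cells was not tested. At 10 UMIs the shares in this set were 48.3% and 43.9%, against 50% and 28.6% of carcinoma cells, so that level does not separate the 2.

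Of 25 genes of the unfolded protein and integrated stress response, 10 were higher and 0 lower, with a median log2 ratio of 0.45, between 0.02 and 0.64 over the alternatives. Hspa5, which encodes the chaperone BiP, was at 0, 713 and 5067 CPM across Momordicine-I cells and 0, 645 and 1386 CPM across vehicle cells, with a summed ratio of 1.64 (1.52 to 1.76). The medians lay close together while the highest cells differed. Atf4, the transcription factor of the integrated stress response, was at 188 and 122 CPM (1.54, 1.31 to 1.82). Asns, the asparagine synthetase, was at 0, 21.0 and 279 CPM across Momordicine-I cells and 0, 26 and 91.7 CPM across vehicle cells, a summed ratio of 2.91 (2.05 to 4.25), and Psat1, of serine synthesis, at 74.4 and 35.9 CPM (2.07). Trib3 and Chac1, both induced by the stress factor CHOP, had 14.2 and 18.1 CPM in Momordicine-I cells and 3.21 CPM each in vehicle cells. Mthfd2, of mitochondrial folate metabolism, was at 68.2 and 17.9 CPM (3.80, 2.57 to 5.83). Among Epcam-low cells the log2 ratios were 0.28 for Mthfd2, against 1.93 over all cells, 0.025 for Atf4, against 0.63, and 0.51 for Asns, against 1.54. That of Psat1 was 0.21 with the limits of 100 CPM, against 1.05.

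Of 17 antiprotease and secretory genes, 8 were higher and 4 lower, with a median log2 ratio of 0.43, between -0.11 and 1.27 over the alternatives. Slpi, the secretory leukocyte protease inhibitor, was at 31.0 and 7.05 CPM, with 52.5% of the Momordicine-I UMIs in 1 cell. Aqp5, a water channel of secretory epithelia, was at 170 and 104 CPM, with 53.1% of the vehicle UMIs in 1 cell. Clu, the secreted chaperone clusterin, was at 274 and 424 CPM, with 88.8% of the vehicle UMIs in 1 cell.

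Among genes with at most 25% of the higher library's UMIs in 1 cell, S100a4, a calcium-binding protein of motile mesenchymal cells, had the interval farthest from 1 on the higher side, at 641 and 171 CPM (ratio 3.76, 3.31 to 4.28). Its median per cell was nevertheless lower in the Momordicine-I cells, at 64.8 against 108 CPM, with a highest cell of 5866 CPM against 662 CPM. It was at 1563 CPM in Epcam-low and 181 CPM in Epcam-high Momordicine-I cells. Among Epcam-high cells alone its log2 ratio was 0.064, against 1.91 over all cells. Rab25 and Cldn4 were higher at ratios of 3.29 and 2.21. Among Epcam-low cells Rab25 had 3 UMIs in the Momordicine-I and 0 in the vehicle library, and Cldn4 had 1 in each. Their log2 ratios of -1.11 there rest on the floor of 3 counts for Rab25 and on 1 UMI per library for Cldn4. Nfkbia, the NF-kappaB inhibitor, was at 322 and 146 CPM (2.21), Herpud1, of protein degradation at the endoplasmic reticulum, at 60.5 and 23.1 CPM (2.62), Car2, a carbonic anhydrase, at 77.5 and 28.8 CPM (2.69), and Smc4, a condensin subunit, at 290 and 135 CPM (2.14). The histone gene Hist3h2a and R3hdm4 were at ratios of 2.55 and 2.24. With the limits of 100 CPM the log2 ratio of Car2 was 0.26, against 1.43, and that of Herpud1 0.43, against 1.39. Among Epcam-low cells that of R3hdm4 was 0.098, against 1.16.

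On the lower side, Gfra1, a co-receptor for GDNF, was at 20.9 and 72.4 CPM (ratio 0.289, 0.214 to 0.388), with UMIs in 23 of 48 and 11 of 14 cells. Ackr3, a scavenger receptor of the chemokine CXCL12, was at 18.3 and 59.6 CPM (0.308), and Esm1, a secreted proteoglycan, at 145 and 387 CPM (0.374). Ghr, the growth hormone receptor, was at 50.4 and 126 CPM (0.399), and Dst, a cytoskeletal linker of hemidesmosomes, at 109 and 232 CPM (0.471). Flnc, an actin-binding filamin, and Myo5a, a myosin motor, were at ratios of 0.403 and 0.394, and Lrrc8c, a subunit of volume-regulated anion channels, and Dpy19l1 at 0.403 and 0.407. Idh1, the cytosolic isocitrate dehydrogenase, was at 33.1 and 80.8 CPM (0.410), and its log2 ratio of -1.29 was 0.22 with thinned cells. Without cells above the median share of neutrophil-marker UMIs the log2 ratio of Flnc was -0.17, against -1.31. With the limits of 100 CPM that of Esm1 was -0.31, against -1.42, and that of Ackr3 -0.94, against -1.70. Among Epcam-low cells that of Dst was -0.33, against -1.09, and that of Ghr -0.70, against -1.33, while among Epcam-high cells that of Gfra1 was -1.04, against -1.79.

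**Figure D5:**
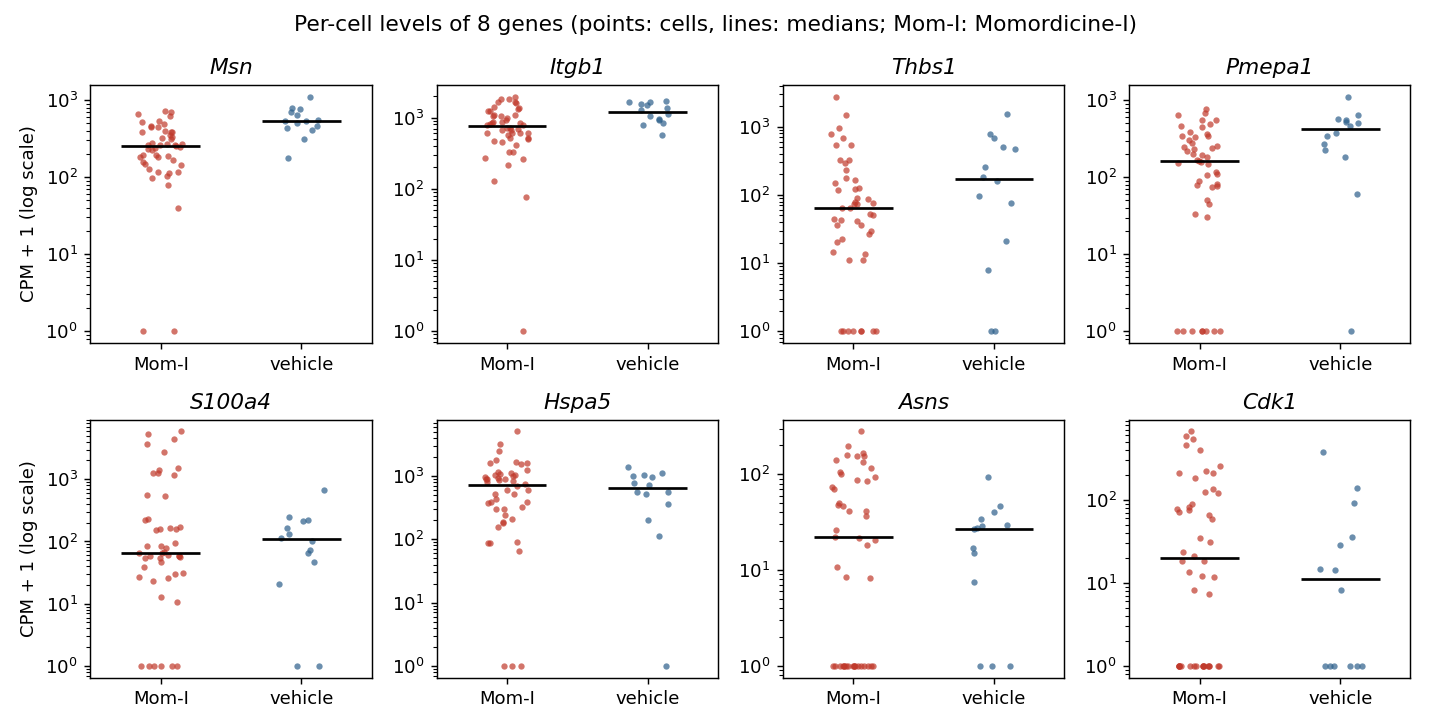
Level per carcinoma cell (CPM + 1, log scale) of Msn, Itgb1, Thbs1, Pmepa1, S100a4, Hspa5, Asns and Cdk1 in Momordicine-I (left) and vehicle (right) cells, with lines at the medians. The median of Msn was 255 CPM in Momordicine-I and 530 CPM in vehicle cells, and for all 8 genes the cells of both libraries overlapped.

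The 6 genes of oncogenic signalling described here had Momordicine-I to vehicle ratios below 1, as did the median of all measured genes, and the intervals of Stat3, Myc, Mcl1 and Met included 1. Over the alternatives the highest log2 ratios were 0.046 for Stat3, 0.15 for Myc, 0.23 for Mcl1 and 0.054 for Ccnd1. Stat3, a transcription factor of cytokine signalling, was at 66.2 and 69.2 CPM (ratio 0.956, 0.760 to 1.21), Myc at 52.2 and 64.1 CPM (0.814, 0.638 to 1.05) and the survival gene Mcl1 at 188 and 197 CPM (0.957, 0.837 to 1.10). Met, the receptor for hepatocyte growth factor, was at 39.0 and 50.6 CPM (0.770, 0.583 to 1.02), and Egfr was at 8.01 and 12.2 CPM. Ccnd1, which encodes cyclin D1, was at 539 and 801 CPM (0.673, 0.627 to 0.722). Of 17 STAT3 and survival targets, 1 was higher and 3 lower, with a median log2 ratio of -0.16. Of 20 drivers and tumour suppressors 2 were higher and 4 lower, with a median of -0.25. Higher and lower shares were 5.88% and 17.6%, and 10% and 20%, near the 9.55% and 16.1% of all 10092 genes.

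As a share of all UMIs, most measured MHC class I and interferon response genes were lower in the carcinoma cells than in neutrophils sorted with them. Median totals were 68394.5 and 112688 UMIs in carcinoma cells (Momordicine-I, vehicle) and 4628 and 5291 in neutrophils. The number of UMIs per cell therefore need not follow this order. H2-K1 and H2-D1, the heavy chains of classical MHC class I, were at 306 and 374 CPM in Momordicine-I carcinoma cells, against 994 and 1615 CPM in neutrophils of that library. In the vehicle library they were at 373 and 376 CPM, against 743 and 1468 CPM. B2m, their light chain, was at 451 CPM in Momordicine-I carcinoma cells and 1545 CPM in neutrophils, and at 779 against 1556 CPM in the vehicle library. The heavy-chain genes are close relatives, so reads may be split between them. Of 20 MHC class I presentation genes, 12 were lower and 5 higher by at least 1.5-fold than in neutrophils in both libraries, where 24.9% and 50.4% of all 10977 measured genes were. Against C1q macrophages 13 of 20 were lower and 2 higher, beside 22.9% and 39.6% of 9646 genes. The immunoproteasome gene Psmb9 was at 10.1 and 11.5 CPM in carcinoma cells, against 98.3 and 74.4 CPM in C1q macrophages.

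Interferon response genes showed the same order as shares of UMIs. Of 26 measured, 22 were lower and 2 higher in carcinoma cells than in neutrophils in both libraries. Isg15, a ubiquitin-like protein induced by interferon, was at 22.2 CPM in Momordicine-I carcinoma cells and 242 CPM in neutrophils, and at 41.7 against 376 CPM in the vehicle library. Bst2, an antiviral membrane protein, was an exception, at 120 against 29.4 CPM and 273 against 34.7 CPM.

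Cd274, which encodes the checkpoint ligand PD-L1, was almost absent from the carcinoma cells. It had 12 UMIs in 9 of 48 Momordicine-I cells (3.1 CPM) and 3 UMIs in 2 of 14 vehicle cells (1.92 CPM), against 538 and 642 CPM in neutrophils and 311 and 398 CPM in C1q macrophages. The neutrophils had median totals of 4628 and 5291 UMIs and the carcinoma cells of 68394.5 and 112688. At so few counts, a difference in Cd274 between the treatments was not detectable. Cd47, the signal that restrains phagocytosis, was present in 42 of 48 and 13 of 14 carcinoma cells at 199 and 214 CPM. Nectin2, a ligand of the receptors DNAM-1 and TIGIT, was at 20.2 and 35.3 CPM, against 0.783 and 0.667 CPM in neutrophils. Of 17 measured checkpoint and NK ligand genes, 6 were higher and 10 lower in carcinoma cells than in neutrophils in both libraries. Of all 10977 measured genes, 50.4% were higher and 24.9% lower by at least 1.5-fold in both.

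Between the treatments, MHC class I genes were at a median log2 ratio of -0.16, with 2 of 19 higher and 2 lower. That median was -0.86 among Epcam-high cells and 1.31 among Epcam-low cells. H2-D1 had a ratio of 0.996 (0.904 to 1.10) and H2-K1 of 0.821 (0.743 to 0.909). B2m was at 0.579 (0.538 to 0.624), with 41.9% of the vehicle UMIs in 1 cell. Among Epcam-low cells its log2 ratio was 0.10, against -0.79 over all cells. Of 22 interferon response genes 14 were lower and 5 higher, with a median of -0.77. The interferon median was -1.91 among Epcam-high and 0.80 among Epcam-low cells, 0.32 at a mitochondrial limit of 5% and 0.12 without the 5% of cells with the most UMIs. Bst2 had a ratio of 0.439, with 56.3% of its vehicle UMIs in 1 cell.

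Of 33 measured chemokine and cytokine genes, 11 were higher and 17 lower in carcinoma cells than in neutrophils in both libraries. Among all 10977 measured genes the shares were 50.4% higher and 24.9% lower. The 3 chemokine and cytokine genes that follow are from the higher side. Cx3cl1 was at 230 CPM in Momordicine-I carcinoma cells and 1.65 CPM in neutrophils, and at 346 against 1.33 CPM in the vehicle library. Cxcl5, a neutrophil attractant, was at 45.5 CPM against 0.696 CPM in neutrophils and at 139 against 1.78 CPM. Mif, a macrophage-acting cytokine, was at 1308 and 1140 CPM, with UMIs in all 62 cells and 642 and 562 CPM in neutrophils. Between treatments, 8 of 27 chemokine and cytokine genes were higher and 5 lower, with a median log2 ratio of 0.14.

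Several of these differences rested on single cells. Of Ccl2, a monocyte attractant, 393 UMIs were counted in 7 Momordicine-I cells, 86.8% of them in 1 cell, and 0 in vehicle cells. Il11 had 286 UMIs in 6 Momordicine-I cells, 85.0% in 1 cell, and 2 UMIs in vehicle cells. Spp1, which encodes osteopontin, was at 0, 139 and 20026 CPM across Momordicine-I cells and 16.1, 361 and 4295 CPM across vehicle cells. Its summed ratio was 2.06 (1.92 to 2.22), and its log2 ratio of 1.04 was 0.10 at a minimum of 10 keratin UMIs, while the median per cell was lower in the Momordicine-I cells. Ptgs2, the inducible cyclooxygenase of prostaglandin synthesis, was at 0, 76.7 and 3832 CPM across Momordicine-I cells and 39.1, 332 and 1471 CPM across vehicle cells, a summed ratio of 0.427 (0.379 to 0.481), and its log2 ratio of -1.23 lay between -1.83 and -0.40 over the alternatives.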

How the data were processed

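The deposited files hold raw counts of UMIs per gene and barcode for each library, written by the authors with Cell Ranger 6.0.2 and the mm10 genome, per the submitters' processing notes. Libraries were 10x Genomics 3' v3.1, per the labels' protocols. Raw counts were read with scanpy 1.11.5 (Python 3.11.15, numpy 2.4.6, scipy 1.17.1) and filtered as stated in the report. Levels are CPM of the carcinoma cells' UMIs added up within a library. Ratios have exact conditional binomial and shares exact Clopper-Pearson 95% intervals, in which UMIs of 1 cell count as independent, so variation between cells is left out. No test was run, since each group has 1 library. No doublet caller was applied; Scrublet was an alternative.

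Neutrophils had 20 or more UMIs of S100a8 and S100a9 and C1q macrophages 10 or more C1q UMIs, each with at most 1 keratin UMI. Cells were clustered with Leiden at resolution 0.5 on 2000 variable genes, 20 components and 15 neighbours. Gene positions are GENCODE's for GRCm38, matched by Ensembl identifier. The cells and gene lists were chosen with earlier results of these data known. Named genes were the 12 higher and 12 lower with ratio intervals farthest from 1 among genes at 50 CPM and 50 UMIs with at most 25% of the higher library's UMIs in 1 cell, up to 6 of each list, leading genes and markers. Genes named outside that rule, among them immune-related genes compared with neutrophils, were chosen after their values were seen. The calculation of ratios and intervals was tested on simulated counts without spread between cells, so that spread was not covered. Some results are not reported here.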

Additional observations from a re-analysis of the deposited data

How the results depend on the processing

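The ratio of the shares of carcinoma cells lay between 2.04 and 4.36 over 12 alternatives. The count of genes at least 1.5-fold higher in the Momordicine-I cells was 147 of 1712 measured with cells thinned to 10000 UMIs (253 lower), 941 without each gene's highest cell in each library (846 lower), 964 at a minimum of 20 UMIs, and 1457 with 1 UMI in each library (2720 lower). The thinned and lower-minimum counts come from fewer and more genes measured. The count without each gene's highest cell leaves out, per gene, 1 of 48 Momordicine-I and 1 of 14 vehicle cells. The part of this unequal removal was not tested. The counts moved by less than 1.5 times under the remaining alternatives.

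Of 646 list medians recomputed, 563 stayed within the range of their members' order statistics. Of the medians, 96 in 27 of 36 lists had the sign opposite to the one reported, 6 of them in lists whose reported median was at least 1.5-fold from level. The interferon median became 0.32 at a mitochondrial limit of 5%, 0.12 without the 5% of cells with the most UMIs and 0.80 among Epcam-low cells. The fibroblast marker median of 0.61 became -0.67 at the 5% limit, -1.04 with thinned cells and -0.13 without the highest cells. Of 1098 log2 ratios of 61 single genes, 88 in 23 genes had the opposite sign, 11 of them in genes reported at least 1.5-fold apart, and 359 others lay outside the counting interval of the reported ratio. Of the 11, Ccn2 was 1.49 at the 5% limit, 0.0034 without the highest cell and 1.59 among Epcam-low cells. Among Epcam-low cells B2m was at 0.10 and Bst2 at 0.84. Rab25 and Cldn4 were each at -1.11 there. Rab25 had 3 Momordicine-I and 0 vehicle UMIs in those cells, and Cldn4 had 1 in each library, counts too small to give a direction. Tm4sf1 was 0.58 at the 5% limit and 0.077 with Ptprc at 0 UMIs, Idh1 0.22 with thinned cells, and Inhba 0.072 with the limits of 100 CPM. The causes were not tested. Leiden resolutions of 0.3 and 1.0 gave 1 and 5 clusters, and Scrublet's highest scores took out 1 Momordicine-I and 0 vehicle carcinoma cells. The limits of 100 CPM, the set without cells under 1% mitochondrial UMIs and the Epcam sets were added after the data were seen.

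No paired analysis was possible because each group is 1 library. The 14 vehicle cells, of which 3 held 37.5% of the UMIs, limit every comparison of treatments, and leaving out a library would leave no comparison.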
